A study of Mus musculus with 4 samples.

Results

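This account follows 9 genes of the p53 pathway in the embryonic mouse brain: Trp53, which encodes p53, its regulators Mdm2 and Mdm4, and 6 targets, Trp53inp1, Phlda3, Eda2r, Sesn2, Zmat3 and Aen. They were taken by gene name from a table of 20421 genes, in which each occurred once. RNA was sequenced from brains of C57BL/6 embryos at embryonic day 15, with 4 samples listed, 2 labelled WT and 2 labelled FOXM1f/+;Nestin-Cre, although the design text speaks of triplicates. Nestin-Cre is a Cre recombinase expressed in neural progenitors, and the series' title refers to the human FOXM1 gene. The titles of the WT samples are 2nestin and 4foxm1, so a control may carry 1 of the alleles, and the labels do not say how the FOXM1 allele was built. The table gives 1 column of read counts per genotype. The column names give the genotype and a code, F1 for FOXM1f/+;Nestin-Cre and C2 for WT, which could not be matched to a sample. These columns are called the transgenic and the WT library here, and whether either one is a single embryo or a pool is unknown. There are no replicates, so no difference below has been tested between genotypes, and each interval covers counting error only.

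p53 is a transcription factor that is kept low by continuous degradation and accumulates after DNA damage or other stress. Mdm2 is the ubiquitin ligase that marks p53 for degradation and is itself a p53 target, which closes a negative feedback loop, while Mdm4 binds p53 and blocks its activity. In the developing cortex, p53 restrains the survival of damaged neural progenitors, and loss of either Mdm gene from the nervous system causes progenitor death. Control of p53 acts mainly on the protein, which read counts do not measure.

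The libraries held 17856653 transgenic and 17543705 WT reads. Mouse Foxm1 had 1289 transgenic and 1139 WT reads, a ratio of 1.11 (1.03 to 1.21), and reads of a human transgene would reach it only where the sequences are alike. Xist had 9628 and 5 reads, and 4 Y-linked genes had 0 transgenic reads against 202 to 1266 in the WT library, so genotype and sex content cannot be told apart. Markers of forebrain were present at 1978 and 1955 CPM (reads per 1000000 reads of the library) summed over 8 genes. Markers of choroid plexus differed widely, at 24.7 and 708 CPM over 6 tested genes, with 5 intervals below 1 and that of Otx2 spanning it. Erythroid markers summed to 667 and 318 CPM over 7 genes, with 5 intervals above 1 and 2 spanning it. Microglial markers summed to 43.2 and 54.5 CPM over 8 genes, with 4 intervals below 1 and 0 above. Endothelial markers summed to 145 and 167 CPM over 8 genes, with 3 intervals below 1 and 0 above. Beside these counts, 16.5% of all genes averaging 1 CPM or more had intervals above 1 and 19.2% below. In whole tissue, fewer cells of a type and less RNA per cell cannot be told apart. The part of these cell types in the values below was not tested.

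To show how the genes relate to p53 in sequence, RefSeq promoters (GRCm38.p6, the 250 bases before each start site) were searched for the p53 consensus decamer, the 10-base unit that occurs in pairs in p53 response elements. The decamer is its own reverse complement, so a search covers both strands. Promoters were found for 7 of the 9 genes, with 9 start sites. The decamer lay in 3 of these 9 windows, in Trp53, in Mdm2 and at the second start site of Aen, against 7.13% of 32851 promoters. Mdm4 and Aen each gave more than 1 window, and those of Aen overlap. So few windows, not all independent, do not measure an enrichment. None of the 9 windows held a pair of decamers up to 13 bases apart, which 0.0639% of all promoters held. Each decamer had to match the consensus at every base, so pairs with a mismatch were not counted. With so rare a match, 0 in 9 windows does not set these genes apart. For comparison, the first start site of Cdkn1a, the classic p53 target, held such a pair. The stretches of 30 bases around the matches are printed 5′ to 3′ on the gene's strand, with the decamer in capitals, and for Cdkn1a the second decamer of the pair is shown.
Trp53, plus strand, chr11:69580274-69580303: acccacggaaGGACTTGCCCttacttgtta
Mdm2, minus strand, chr10:117710925-117710954: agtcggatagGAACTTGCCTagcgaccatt
Aen, plus strand, chr7:78895927-78895956: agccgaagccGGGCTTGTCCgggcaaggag
Cdkn1a, plus strand, chr17:29090918-29090947: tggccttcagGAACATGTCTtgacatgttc
The matches begin 75, 186, 121 and 51 bases before the respective start sites. A match is a run of letters and was not measured as a binding site. The p53-driven promoter of Mdm2 lies inside the gene, outside the window searched.

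Trp53 (ENSMUSG00000059552; chromosome 11, 69580359 to 69591873, GRCm38) was the most abundant of the 9 genes. It had 3020 reads, or 169 CPM, in the transgenic library and 2681 reads, or 153 CPM, in the WT library. The transgenic library was higher by a ratio of 1.11 (1.05 to 1.17), a small difference that lay outside counting error. No exon base of any of the 9 genes is shared with another gene in GENCODE M21, so reads of antisense neighbours, such as Wrap53 beside Trp53, do not fall on their annotated exons.

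The regulators Mdm2 and Mdm4 had ratios close to 1. Mdm2 (ENSMUSG00000020184; chromosome 10, 117688875 to 117710758) had 1363 transgenic reads (76.3 CPM) and 1278 WT reads (72.8 CPM). Its ratio was 1.05 (0.970 to 1.13), an interval that spanned 1. Mdm4 (ENSMUSG00000054387; chromosome 1, 132959484 to 133030561) had 1920 reads (108 CPM) and 2010 reads (115 CPM), 1.07-fold lower in the transgenic library. Its log2 interval, -0.18 to -0.00, ended at the edge of no difference. With TMM scaling, which balances the libraries on the bulk of genes, it was -0.17 to 0.02 and spanned 0.

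Among the targets, Phlda3 and Trp53inp1 were higher in the transgenic library. Phlda3 (ENSMUSG00000041801; chromosome 1, 135766119 to 135769136), a small lipid-binding protein that holds back Akt signalling, had 192 reads (10.8 CPM) and 145 reads (8.27 CPM). Its ratio of 1.30 (1.04 to 1.63) was the highest of the 9 genes, with a wide interval because of its few reads. Trp53inp1 (ENSMUSG00000028211; chromosome 4, 11156431 to 11174379), a nuclear cofactor that promotes p53 activity and autophagy, had 1304 reads (73.0 CPM) and 1179 reads (67.2 CPM). Its log2 ratio was 0.12 (0.01 to 0.23), which lay above 0 by a narrow margin.

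Aen was lower in the transgenic library, and the interval of Eda2r spanned 1. Aen (ENSMUSG00000030609; chromosome 7, 78895854 to 78911209), a nuclease that enhances cell death after DNA damage, had 760 reads (42.6 CPM) in the transgenic and 878 reads (50.0 CPM) in the WT library. It was 1.18-fold lower (1.07 to 1.30), outside counting error. Eda2r (ENSMUSG00000034457; X chromosome, 97333840 to 97377216), a receptor of the tumour necrosis factor family that binds ectodysplasin A2, had the fewest reads of the 9. It had 34 reads (1.90 CPM) and 47 reads (2.68 CPM), 1.41-fold lower with an interval of 0.886 to 2.26 that spanned 1. At this depth, a 1.41-fold difference of Eda2r could not be told from counting error. Eda2r is X-linked and the libraries differed in sex content. The 504 tested X-linked genes other than Xist had a median log2 ratio of -0.03.

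Sesn2 and Zmat3 had ratios near 1. Sesn2 (ENSMUSG00000028893; chromosome 4, 132492032 to 132510501), a leucine sensor that restrains the growth kinase complex mTORC1, had 160 reads (8.96 CPM) and 165 reads (9.41 CPM), a ratio of 0.953 (0.762 to 1.19). Zmat3 (ENSMUSG00000027663; chromosome 3, 32334792 to 32366014), a zinc finger RNA-binding protein that regulates splicing, had 811 reads (45.4 CPM) and 785 reads (44.7 CPM). Its ratio was 1.02 (0.919 to 1.12).

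**Figure D1:**
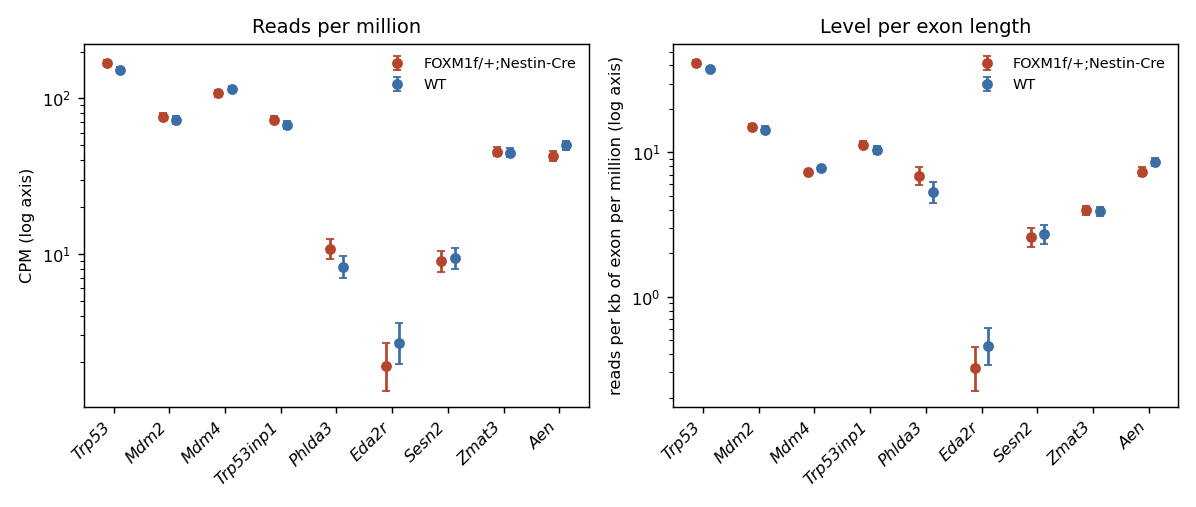
Levels of the 9 genes in the FOXM1f/+;Nestin-Cre (red) and WT (blue) libraries, as CPM (left) and per kilobase of exon (right), both on log axes. Bars are exact 95% Poisson intervals of the 1 column per genotype; Trp53 is highest on both scales and Eda2r lowest.

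The 9 genes were then read against all genes. Genes were compared if they averaged 1 CPM or more over both libraries, which 14557 did. A fold of at least 1.5 was reached by 7.77% of them and by 0 of the 9, which is near that share for so few genes. Such folds were rarer at higher counts. With a mean of at least 10 CPM, 34 of 10140 genes were higher by that fold and 86 lower. Counting intervals lay wholly above 1 for 3 of the 9 genes, against 16.5% of all tested genes. They lay wholly below 1 for 2 of the 9, against 19.2%. The remaining 4 spanned 1. In either direction, 5 of 9 thus compare with 35.7% of all tested genes. These intervals narrow as reads increase, and the 9 genes had a median of 46.3 CPM against 26.8 for all tested genes. The median log2 ratio was 0.02 for the 9 genes and -0.01 for all tested genes. The range spanned by the 9, from -0.49 to 0.38, held 87.0% of tested genes. In the authors' deposited table, which compares 1 column with 1 column by a test not given in the sources used here, 0 of the 9 genes were marked as significant. The smallest fold among the genes they marked is 1.5, so this count follows from the fold count above and adds nothing to it. The lowest adjusted p-values among the 9 in the authors' deposited table were those of Trp53, Aen and Phlda3, also from 1 column per genotype.

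**Figure D2:**
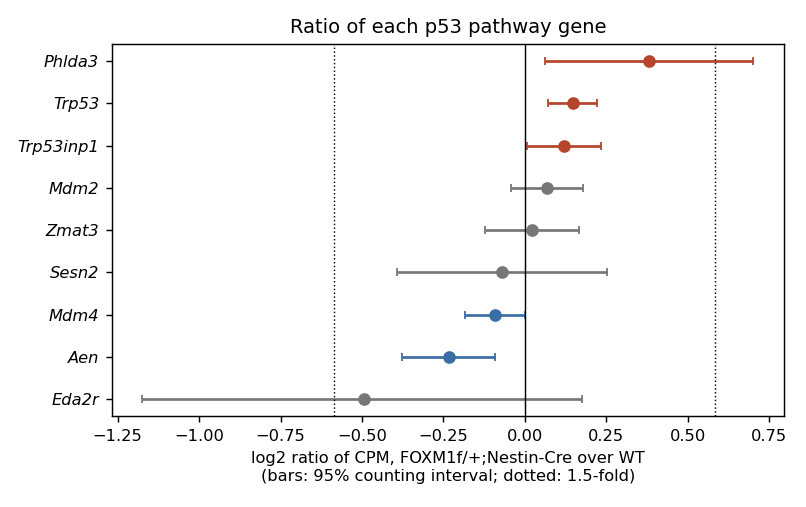
Log2 ratio of each gene, FOXM1f/+;Nestin-Cre over WT, with 95% counting intervals. Red intervals lie above 0 (Phlda3, Trp53, Trp53inp1), blue below 0 (Mdm4, Aen) and grey span it; dotted lines mark 1.5-fold, which no gene reached.

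**Figure D3:**
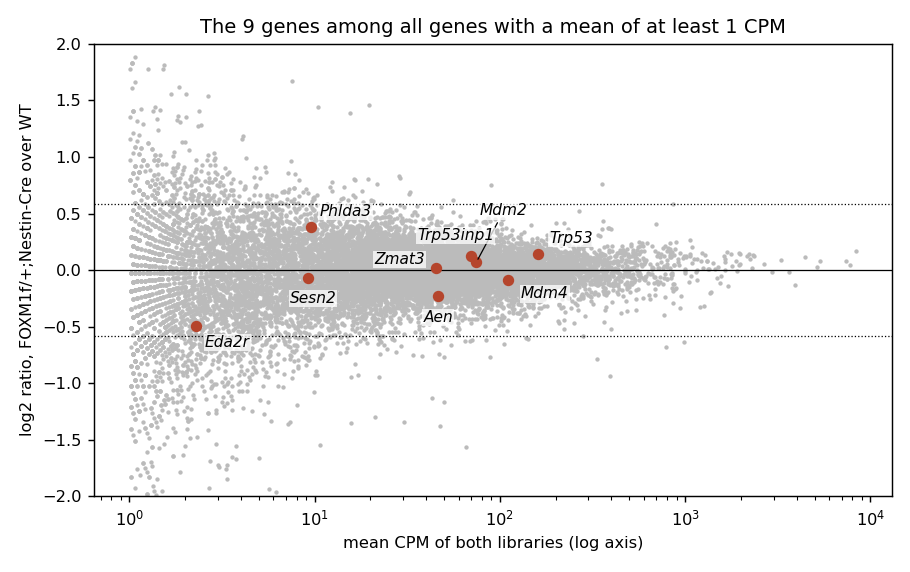
Log2 ratio against mean CPM (log axis) for all compared genes (grey), with the 9 genes in red; 74 genes beyond the axis or at 0 reads in a library are not drawn. The 9 points sit inside the grey cloud and between the dotted lines at 1.5-fold.

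Levels were compared between genes as CPM per kilobase of merged exon, since longer transcripts yield more reads. Trp53 stood at 41.8 in the transgenic and 37.8 in the WT library, at percentile 90.3 of tested genes by the mean of both. Mdm2 followed at 15.02 and 14.33, and Trp53inp1 at 11.3 and 10.4. The ratio of Trp53 to Mdm2 was 2.78 (2.61 to 2.97) in transgenic and 2.64 (2.47 to 2.82) in WT reads, so p53 mRNA was the more abundant of the pair in both.

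Mdm4 gave more reads than Mdm2 but had a greater exon length (14798 against 5083 bases), and it fell to 7.27 and 7.74 per kilobase. Aen stood at 7.34 and 8.63, and Phlda3 at 6.90 and 5.30. In the transgenic library, Aen, Mdm4 and Phlda3 could not be ordered, with a ratio of Aen to Mdm4 of 1.01 (0.927 to 1.10) and of Mdm4 to Phlda3 of 1.05 (0.908 to 1.23). In the WT library the same steps were 1.11 (1.03 to 1.21) and 1.46 (1.23 to 1.74). Zmat3, at 3.97 and 3.91, and Sesn2, at 2.58 and 2.71, were lower. Eda2r was lowest at 0.323 and 0.455, at percentile 4.61 of tested genes. By these values alone, without their intervals, the order from Trp53 to Eda2r was the same in both libraries. Exon lengths were merged over all annotated transcripts, which understates the level of genes that use short ones.

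Differences between the genes of a library do not depend on how the libraries are scaled, so the 36 pairs were compared as differences of log2 ratios. The counting interval of the difference excluded 0 in 12 of the 36 pairs, and no adjustment was made for their number. Each of the 12 involved Phlda3, Mdm4 or Aen. The Trp53 to Mdm4 read ratio was 1.57 in the transgenic and 1.33 in the WT library, a log2 difference of 0.24 (0.12 to 0.36). That of Mdm2 to Mdm4 was 0.710 and 0.636, a difference of 0.16 (0.02 to 0.30). That of Trp53 to Mdm2 was 2.22 and 2.10, a difference of 0.08 (-0.05 to 0.21). Relative to its inhibitor Mdm4, p53 mRNA was thus more abundant in the transgenic library, whereas relative to its ligase Mdm2 the interval spanned 0. Among the targets, Phlda3 and Aen differed by 0.61 (0.27 to 0.95), and Trp53 and Aen by 0.38 (0.22 to 0.54).

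**Figure D4:**
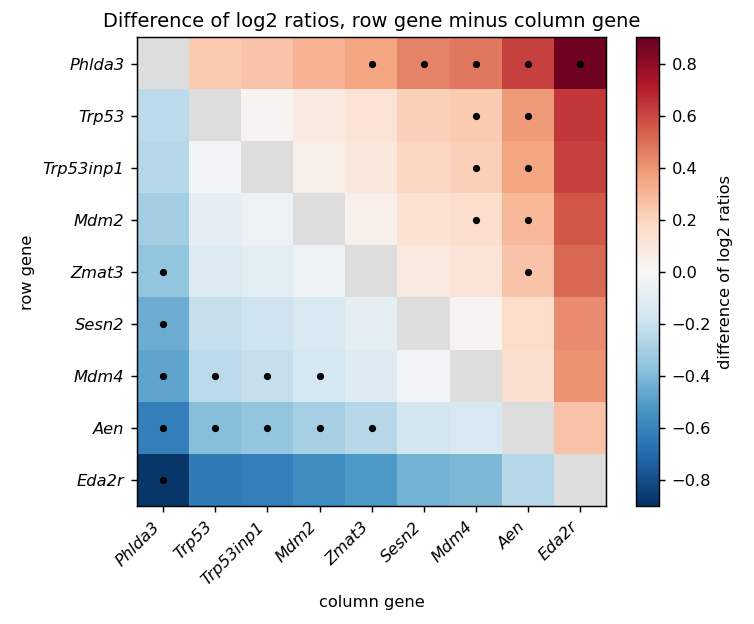
Difference of log2 ratios (FOXM1f/+;Nestin-Cre over WT) for each pair, row gene minus column gene, by colour; a dot marks the 12 pairs whose 95% counting interval excludes 0. Pairs with Eda2r have deep colours but mostly no dot, because it had only 34 and 47 reads.

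Other targets of p53 that arrest the cell cycle were mixed. Of 11 tested, 2 had intervals above 1, 3 below and 6 spanning it, beside 16.5% above and 19.2% below among all tested genes, and the median log2 ratio was 0.02. Over this and the next 2 groups of targets together, 5 of 33 intervals lay above 1 (15.2%) and 8 below (24.2%), with a median of -0.03. Cdkn1a, the inhibitor of cyclin-dependent kinases that carries out p53 arrest, had 371 and 426 reads and was 1.17-fold lower (1.01 to 1.35). Plk2, a kinase of centriole duplication and synapses, was 1.26-fold lower (1.19 to 1.35), and Zfp385a, a zinc finger cofactor that steers p53 toward arrest genes, 1.15-fold lower (1.06 to 1.24). Psrc1, a spindle microtubule protein, was 1.27-fold higher (1.16 to 1.39) and Btg2, an antiproliferative gene of neurogenic divisions, 1.24-fold higher (1.16 to 1.34). Ccng1, a cyclin induced by p53, had 453 reads in each library.

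Of the 10 tested apoptosis targets, 0 had intervals above 1, 2 below and 8 spanning it. Among all tested genes, 16.5% lay above and 19.2% below, so the share below was near theirs. The apoptosis targets had a median of -0.01 that was 0.01 with RLE scaling. Bid, a messenger between death receptors and mitochondria, had 172 and 254 reads and was 1.5-fold lower (1.23 to 1.83). Bbc3, which encodes Puma, a death effector of p53, had 424 and 572 reads and was 1.37-fold lower (1.21 to 1.56). Siva1 had 772 and 699 reads, a ratio of 1.09 (0.978 to 1.20), and Pidd1, a platform for caspase activation, 484 and 443, a ratio of 1.07 (0.942 to 1.22). The pore former Bax had 869 reads in each library.

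The repair and metabolism targets had 3 of 12 intervals above 1, 3 below and 6 spanning it, beside 16.5% above and 19.2% below among all tested genes. Their median was -0.07, and 0.02 if a mean of 10 CPM was required. Gpx1, a peroxide-reducing enzyme, was 1.12-fold higher with a log2 ratio of 0.16, and the ribosomal protein Rps27l and the excision nuclease Ercc5 had log2 ratios of 0.18 and 0.16. Xpc, which recognises damaged DNA, was 1.15-fold lower (1.01 to 1.30). Sesn1, a sestrin like Sesn2, had 882 and 900 reads, a ratio of 0.963 (0.876 to 1.06).

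Genes that set p53 stability and activity had 7 of 19 intervals above 1, 0 below and 12 spanning it, with a median of 0.06, beside 16.5% above and 19.2% below among all tested genes. Of the 7, 3 are ribosomal proteins with 7571 to 14859 reads per library, a depth that gives narrow intervals. Chek2, the checkpoint kinase that phosphorylates p53 after DNA breaks, had 275 and 166 reads and was 1.63-fold higher (1.34 to 1.99). The ribosomal proteins Rpl5, Rpl23 and Rpl11, which can bind and inhibit Mdm2, were 1.16-fold (1.13 to 1.18), 1.13-fold (1.10 to 1.17) and 1.12-fold (1.09 to 1.15) higher. Among relatives and binding partners, 4 of 14 intervals lay above 1, 3 below and 7 spanned it, with a median of 0.02, beside the same 16.5% and 19.2%. The p53-binding proteins Trp53bp2 and Ppp1r13b, which steer p53 toward death genes, were 1.27-fold (1.17 to 1.39) and 1.20-fold (1.09 to 1.32) lower. Edar, a receptor related to Eda2r, had 12 and 26 reads, and Tnfrsf19, another receptor of that family, was 1.16-fold higher (1.06 to 1.28). The p53 relative Trp73 had 520 and 556 reads, a ratio of 0.919 (0.814 to 1.04), and Trp63 6 and 3 reads.

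A wider set gave a like picture. The table's own annotation assigns a term for signalling by a p53 class mediator to 116 tested genes, including 8 of the 9 described here (not Trp53inp1). Of these, 23 had intervals above 1 and 21 below, 19.8% and 18.1% against 16.5% and 19.2% of all tested genes, and their median log2 ratio was 0.01. Markers of cell states had medians farther from 0. All 12 markers of dividing cells had intervals above 1, with a median of 0.37 and summed levels of 1594 and 1258 CPM. Of 8 radial glia markers, 5 lay above 1 and 0 below, with a median of 0.22 and 2210 and 1812 CPM. Of 8 neuron markers, 7 lay below 1, with a median of -0.14 and 6445 and 6951 CPM. The ratios of Trp53, Phlda3 and Trp53inp1 had the direction of most dividing and radial glia markers, and those of Aen and Mdm4 the direction of the neuron markers. Any ratio other than 1 must share its direction with some of these markers. The part of cell composition in these values was not tested.

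**Figure D5:**
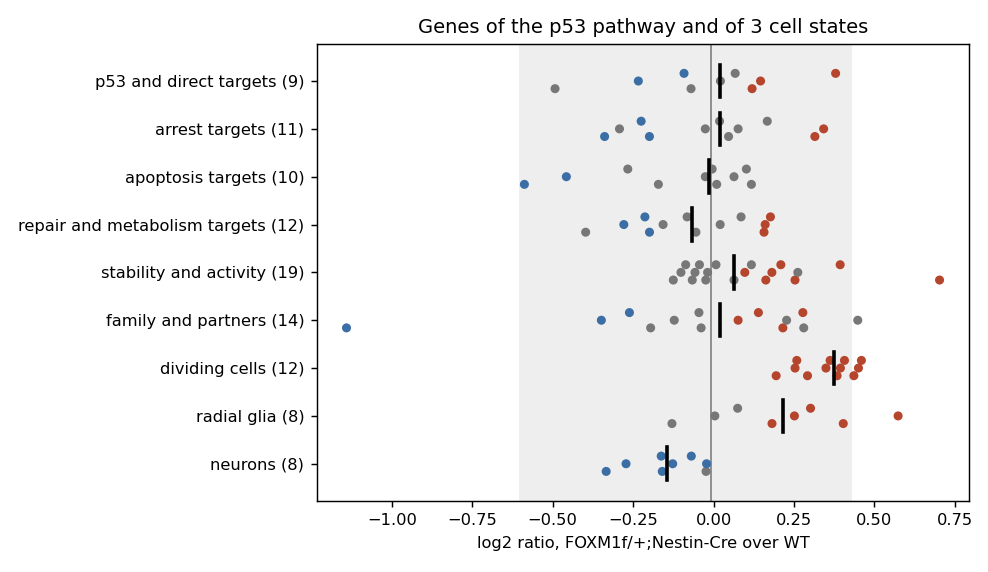
Log2 ratio of each tested gene, FOXM1f/+;Nestin-Cre over WT, in 9 groups; black bars are medians, red and blue points have counting intervals above and below 0, and the grey band holds the 5th to 95th percentile of all tested genes around their median line. The p53 groups have medians from -0.07 to 0.06, while the 12 dividing-cell points all lie to the right of 0.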

How the data were processed

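Total RNA was taken with Trizol, per the labels' protocols, and the submitters' processing notes name TopHat2 2.0.12, Bowtie2 2.2.3 and HTSeq 0.6.0, with mm9 as the build. The table's coordinates of the 9 genes equal those of GENCODE M21 on GRCm38. The sources used here do not give the strand setting or the treatment of multi-mapping reads. The deposited table gives raw read counts and CPM, 1 column of each per genotype, per the file headers. The deposited fold, log2 and p-value columns are the authors' own comparison.

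CPM were computed from the counts and table totals. Each ratio has an exact conditional 95% interval for 2 Poisson rates, and each difference of log2 ratios a normal interval from 4 counts. Genes averaging 1 CPM or more were compared, at a fold of at least 1.5. Alternatives were TMM and RLE factors, a library total without variable genes, other expression minimums, 2-fold, and the interval itself. The members and lists were chosen with earlier results of these data known. From each list, the 4 genes farthest from 0 relative to counting error were named, and Cdkn1a, Ccng1 and Bbc3 always. Relatives of the members (Sesn1, Trp63, Trp73) and Bax were added after values were seen. The interval procedure was run on simulated Poisson counts with the same library totals. These hold no spread between embryos, so the run checked the calculation only. Python 3.11.15, NumPy 2.4.6, pandas 2.3.3, SciPy 1.17.1, Matplotlib 3.10.9, R 4.3.3 and edgeR 4.0.16 (scaling factors only) were used.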

Additional observations from a re-analysis of the deposited data

How the results depend on the processing

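No paired analysis was possible because the table holds 1 column per genotype, and for the same reason leaving out a replicate could not be run. The count of the 9 genes at least 1.5-fold apart was 0 under TMM and RLE scaling, without an expression minimum, with at least 1 CPM in both columns, and at 2-fold. With a mean of at least 10 CPM it was also 0, with 6 of the 9 genes tested. Few genes of any kind reached 1.5-fold there, 34 higher and 86 lower of 10140, so this 0 says little about the 6. Counting genes whose interval lay on one side of 1 gave 5 instead. Scaling moved the log2 ratio of a member by at most 0.03, and 0 members changed sign, but the interval of Mdm4 spanned 0 under TMM, RLE and the reduced library total. List medians stayed between -0.07 and 0.09 over the alternatives. Among all tested genes, intervals above 1 made up 46.1% of those excluding 1, and 55.9% under RLE. Depth limits Eda2r most, and the spread between embryos was not measured.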
